A study of Mus musculus with 22 samples.

Results

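Oligodendrocytes of the hypothalamus were examined through cluster 2 of the deposited clustering of whole cells, the largest of 3 clusters that carried all 11 markers of the myelinating oligodendrocyte list. Every cell that the deposited metadata place in cluster 2 was taken, with no further selection, which gave 7409 of 54890 whole cells from 12 mice. The other oligodendrocyte clusters, 11 and 12, held 1378 and 1175 cells.

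All mice were male, leptin-deficient ob/ob mice of 11 weeks, a strain that is obese and diabetic, kept on chow, and each mouse gave 1 library. A group of 6 mice received 3 µg of fibroblast growth factor 1 (FGF1) once into a lateral brain ventricle (icv), and 6 received vehicle in the same way and were pair-fed (PF) to the intake of the FGF1 mice. Hypothalami were taken on Day 5, and single-cell RNA-seq (scRNA-seq) counted unique molecular identifiers (UMIs), tags that mark single captured RNA molecules. Every animal lacked leptin and vehicle intake was restricted, so neither group stands for lean or freely fed vehicle mice. Single-nucleus RNA-seq (snRNA-seq) of other male ob/ob mice, killed on Day 1 (3 FGF1, 3 vehicle) or Day 5 (2 and 2), is given beside the whole cells as a description. Those mice came from another supplier and may have eaten another chow, since the paper names more than 1.

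Oligodendrocytes wrap axons in myelin, a compacted membrane built mainly of lipid with proteins such as myelin basic protein (Mbp), and they pass metabolites to the axons they cover. They arise from oligodendrocyte precursor cells (OPC) through committed precursors (COP) and newly formed cells, and mature cells differ between regions in a few genes. FGF receptors are present along this lineage, and in the adult hypothalamus the lineage keeps turning over, including in the median eminence.

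Cluster 2 fitted its label. Each of the 11 oligodendrocyte markers was higher there than in the cells outside clusters 2, 11 and 12 in 12 of 12 mice. The markers that set it apart were Ppp1r14a at 51.8 times the level outside the oligodendrocyte clusters, Cntn2 (49.9 times), Ermn (60.2 times), Anln (29.8 times) and Trf (27.0 times). Tmem125 had the highest ratio, at 111 CPM (counts scaled to a common library total) and 67.1 times, followed by Opalin (65.3 times), Tnni1, the gap junction gene Gjb1, Galnt6, Pls1 and Mog, which lies on the outer face of myelin. These ratios describe the clustering and were not tested. Ppp1r14a varied most between mice among the markers, from 78.8 normalised CPM in FGF1 replicate 10 to 524 in vehicle replicate 22, while Cntn2 stayed between 386 and 556. Normalised CPM are scaled for library composition (TMM), whereas CPM without that word are plain, with no such scaling.

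The cluster held 10773969 UMIs, with a median of 1299 UMIs and 726 genes per cell. It was thin in some mice: the FGF1 mice gave 93, 104, 168, 256, 460 and 718 cells and the vehicle mice 227, 487, 616, 1222, 1440 and 1618. Median depth per cell differed by 79.7 UMIs between the groups (exact two-sided permutation test, p = 0.762, adjusted p = 0.775), and the share of mitochondrial UMIs by -1.02 percentage points (exact permutation p = 0.143, adjusted p = 0.250), which ignores the batches, and within them it was lower after FGF1 in all 6, by -0.0141 to -3.75 points. In cluster 2, 36 barcode sequences occurred in more than 1 library. Markers of other cell types were detected, and the source of their RNA was not tested. The summed level of 7 astrocyte markers was 2343 to 3629.7 CPM (median 2932) after FGF1 and 1971 to 3032 (median 2770.0) after vehicle, which was 27.1% of the level in cluster 1, the main astrocyte cluster. For 5 tanycyte markers, genes of the cells that line the floor of the ventricle, the sum was 146 to 354 CPM (median 261) after FGF1 and 44.4 to 128 (median 81.0) after vehicle, without overlap between the groups, and it was 14.2% of the level in tanycyte cluster 0. The 6 ependymal markers summed to 178 to 529 CPM (median 261) after FGF1 and 78.8 to 200.1 (median 143) after vehicle, or 3.30% of the level in ependymal cluster 6. Microglial markers overlapped between the groups (median 220.0 and 168 CPM), the 5 neuronal markers had medians of 224 and 359 CPM without overlap, and the macrophage marker Lyve1 was at 0.

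The 3 oligodendrocyte clusters divided differently between the groups. Cluster 2 took 15.5% to 75.3% (median 56.2%) of the cells of clusters 2, 11 and 12 in FGF1 mice and 78.0% to 91.4% (median 82.9%) in vehicle mice, so the groups did not overlap. Of all cells it took 1.99% to 11.9% (median 6.84%) and 11.5% to 22.0% (median 19.8%). Cluster 11 held 1212 FGF1 and 166 vehicle cells, and cluster 12 held 223 and 952. These sizes are a description with no test, because the clusters were drawn from genes that differed between the groups, and a change in cell number cannot be told apart from a change in expression that moves a cell to another cluster. The comparisons below therefore concern cells that lay in cluster 2 in either group, and the calls that were lost with the 3 clusters summed are named with the main count.

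Cluster 2 and cluster 11 each had genes that the other held at a fraction of the level. Higher in cluster 2, Hes1, a Notch target, stood at 163 against 29.4 CPM over 12 mice, the cystine carrier Slc7a11 at 118 against 22.6 CPM, Fgfr3 at 124 against 34.1 CPM and the gap junction gene Gja1 at 290.2 against 82.9 CPM, and Slc7a11, Fgfr3 and Gja1 were higher in cluster 2 in 12 of 12 mice. Cluster 11 was higher in Tmem141 (276 against 39.9 CPM), Igsf8 (286 against 74.0) and Rap2a in all 12 mice, and in Birc2 and Plat. Over the 10 mice with at least 10 cells in both, cluster 12 had 46859.8 CPM of Ptgds, the prostaglandin D2 synthase of mature oligodendrocytes, and cluster 2 had 11353. Cluster 12 was also higher in Gstp1, Wfdc18, Itgad, Cd9 (845 against 376 CPM) and Fdps of cholesterol synthesis, while cluster 2 was higher in Hes1, 6330403K07Rik, S100a6, Nnat, Sox9 and Gja1. Fgfr3, Gja1, Slc7a11 and Sox9 are also expressed by astrocytes, whose markers cluster 2 carried at 27.1% of the level in cluster 1, and the part of astrocyte RNA was not tested. Again these contrasts were used by the clustering and carry no test.

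The main question was how the cluster 2 cells of FGF1 mice differed from those of vehicle mice on Day 5. On counts summed per mouse, edgeR called 65 of 7187 genes at a false discovery rate (FDR) below 0.05, which is 0.904% of the genes tested, with 40 higher after FGF1 (0.557%) and 25 lower (0.348%). At an unadjusted p below 0.05 there were 866 genes. The 6 FGF1 and 6 vehicle values did not overlap for 83 genes (1.15% of those tested), of which 37 were called. Among the called genes, 60 differed in the same direction in all 6 batches of 1 FGF1 and 1 vehicle mouse, as did 6.85% of all genes tested. The overlap and batch counts use the same values as the calls and are not independent of them. The called genes fell into 3 groups by where else they were expressed, a division made after their values were seen. Clusters 17, 18, 19 and 20, where only 3 to 5 mice had at least 10 cells, were left out of it. For 4 genes the level in cluster 2 reached or passed the highest level in the other clusters outside the oligodendrocytes and COP (6.15% of the called genes, against 12.4% of all genes tested). For 43 genes (19 higher, 24 lower) it was between 10% and 100% of that level (66.2% against 85.3%), and for 18 genes, all higher after FGF1, it was under 10% (27.7% against 2.35%). Leaving out 1 mouse changed the count to between 28 (without vehicle replicate 25) and 84 (without FGF1 replicate 36), and without FGF1 replicates 10 and 21, the mice with the fewest cells, it was 19. With clusters 2, 11 and 12 summed, 42 of the 65 genes were called and all 65 kept their direction. Those that missed the threshold there included Slc38a1, Slc7a11, Prdx6, Anxa5, Crip1, Crip2, Tspo, Msn, S100a4, Tm4sf1, Thrsp and Aqp4, the cilium genes Enkur, Lrrc23, Cfap126, Fam183b, 1700007K13Rik, Riiad1 and Tmem107, and, among the lower genes, Prkcb, Hist3h2ba and Gstm5. With the batch as a term, 10 of the 65 were lost, namely Dnaja1, Tmem106c, S100a4, Riiad1, 1700007K13Rik, Shtn1, Rhou, Gstm5, Itih3 and Dcxr. The calls that rested most on single mice were those of Tm4sf1 (called in 1 of the 6 fits without a mouse in which it was tested), Anxa5, Itih3, Poc1a and Crip1 (2 of 12 each), and Riiad1, Ctxn2, S100a4, Dcxr, Dnaja1, Crip2, Tmem106c and Shtn1 (3 of 12 each).

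**Figure D1:**
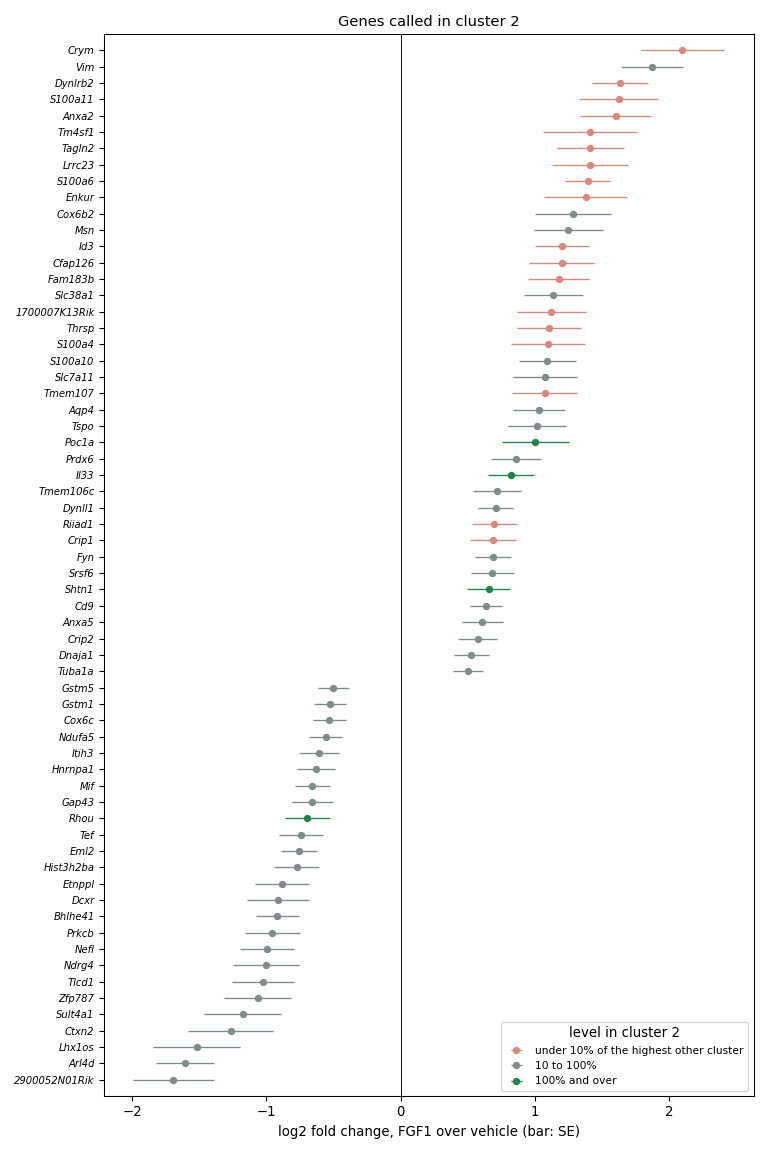
Log2 fold change (FGF1 over vehicle, x axis) of genes called in cluster 2, 1 gene per row, with bars of 1 SE; colour gives the level in cluster 2 as a share of the highest level in another cluster. The 18 genes under 10% all lie to the right of 0, and the 25 lower genes lie between -0.50 and -1.69.

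Il33 had the lowest FDR among the genes with an oligodendrocyte level, though not the largest fold change. It encodes interleukin 33, an alarmin kept in the nucleus of oligodendrocytes and astrocytes and released from damaged cells (chromosome 19, 29925114 to 29960718, plus strand, GRCm38). In cluster 2 it stood at 378 to 680.4 (median 399) normalised CPM after FGF1 and 191 to 364 (median 251) after vehicle (n = 6 mice per group here and below). The groups did not overlap, and all 6 batches were higher after FGF1 (log2 fold change 0.83 ± 0.17 SE, FDR 0.0211). Cluster 3, which carried endothelial and pericyte markers, held 22.6 ± 8.08 CPM after FGF1 and 31.5 ± 10.8 after vehicle (SD, n = 6), against 460.2 ± 126 and 244 ± 57.3 in cluster 2 on the same plain scale. In cluster 11 the difference was wider, at 348 to 721 (median 614) CPM after FGF1 and 53.4 to 260.5 (median 167) after vehicle. Cluster 12 held 472 to 1367 (median 564) CPM in 4 FGF1 mice and 287 to 556 (median 359.5) in 6 vehicle mice. Its call in cluster 2 rested in part on vehicle replicate 25, without which the FDR was 0.0615, and it did not pass with each cell thinned to 800 UMIs or without FGF1 replicates 10 and 21 (highest FDR 0.114).

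**Figure D2:**
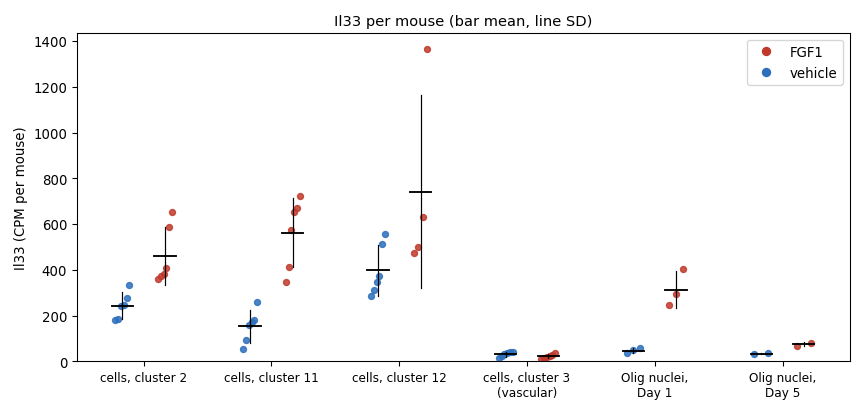
Il33 in CPM per mouse (y axis, linear) in whole-cell clusters 2, 11, 12 and 3 and in oligodendrocyte nuclei on Day 1 and Day 5; points are mice, bars the mean and lines the SD (n = 6 per group, 4 FGF1 mice in cluster 12, and 3 and 2 per group for nuclei). FGF1 mice lie above vehicle mice without overlap in clusters 2 and 11 and in nuclei on both days, and cluster 3 reaches at most 42.0 CPM.

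The other genes of that group were Poc1a, Shtn1 and Rhou. Poc1a, a centriole protein, stood at 37.4 to 92.2 (median 42.4) normalised CPM after FGF1 and 11.2 to 37.4 (median 21.6) after vehicle, ranges that met without overlapping (log2 fold change 1.01 ± 0.25, FDR 0.0486). Shtn1, or shootin 1, which links actin to adhesion molecules during outgrowth, was at 55.1 to 103 (median 84.7) normalised CPM after FGF1 and 43.8 to 67.9 (median 49.4) after vehicle (log2 fold change 0.66 ± 0.16, FDR 0.0439), and here the groups overlapped. Rhou, a small GTPase, was the gene that fell, at 52.6 to 193 (median 143) normalised CPM after FGF1 and 205 to 264 (median 232) after vehicle, without overlap (log2 fold change -0.69 ± 0.17, FDR 0.0449). All 3 sat close to the threshold: each lost its call without several single mice, and Shtn1 and Rhou also with the batch as a term.

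Cd9, Fyn, Dynll1 and Tuba1a were among the genes between 10% and 100% that rose. Cd9, a tetraspanin of myelin, was at 416 to 579 (median 474) normalised CPM after FGF1 and 264 to 357 (median 322) after vehicle, and every FGF1 mouse exceeded every vehicle mouse (log2 fold change 0.64 ± 0.12, FDR 0.00438). Fyn, the kinase that acts downstream of axonal contact and starts local Mbp synthesis, was at 91.9 to 158 (median 114) normalised CPM after FGF1 and 65.2 to 78.3 (median 68.8) after vehicle (log2 fold change 0.69 ± 0.14, FDR 0.00813). Dynll1, a light chain of dynein, was at 573 to 957 (median 742) normalised CPM after FGF1 and 348 to 529 (median 459) after vehicle (log2 fold change 0.71 ± 0.13, FDR 0.00403). None of these 3 overlapped between the groups, and each was called with each mouse left out in turn. Fyn did not pass with each cell thinned to 800 UMIs or without FGF1 replicates 10 and 21 (highest FDR 0.118). Tuba1a, the main neuronal and glial alpha-tubulin of growing processes, rose less, from a vehicle range of 505 to 742 (median 654) to 769 to 1044 (median 899) normalised CPM (log2 fold change 0.50 ± 0.11, FDR 0.0211), and lost its call without FGF1 replicate 7, 10 or 21 or vehicle replicate 25. Fyn and Cd9 overlap unnamed transcripts on the other strand. In COP cluster 9 the same test gave log2 fold changes of 0.78 for Cd9 (FDR 0.0322), 0.52 for Fyn (FDR 0.0279), 0.68 for Dynll1 (FDR 0.00300) and 1.04 for Tuba1a (FDR 3.57e-04). In cluster 11 it gave 1.01 for Dynll1 (FDR 0.00658) and 0.85 for Tuba1a (FDR 0.0153), but 0.08 for Cd9 (FDR 0.886), whose 404 to 604 CPM after FGF1 lay within the 223 to 816 CPM after vehicle. Fyn, which was not among the genes tested in cluster 11, overlapped there too, at 71.2 to 111 CPM after FGF1 and 61.3 to 104 after vehicle. In cluster 12 none of the 4 genes passed the test, with FDR from 0.0786 for Cd9 to 0.499 for Fyn. All these values come from the same mice.

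Also higher after FGF1 were Slc38a1, Slc7a11 and Prdx6. Slc38a1, a glutamine carrier, was at 74.9 to 165 (median 122) normalised CPM after FGF1 and 25.5 to 66.6 (median 49.0) after vehicle without overlap (log2 fold change 1.14 ± 0.22, FDR 0.0115). Slc7a11, which imports cystine for glutathione, was at 87.5 to 308 (median 157) normalised CPM after FGF1 and 44.9 to 89.9 (median 72.3) after vehicle, with overlap (log2 fold change 1.08 ± 0.24, FDR 0.0412). Prdx6, a peroxidase that acts on membrane lipids, was at 449 to 1005 (median 630.3) normalised CPM after FGF1 and 331 to 501 (median 371) after vehicle, again with overlap (log2 fold change 0.86 ± 0.18, FDR 0.0288). For Slc7a11 and Prdx6 the calls were lost without 7 and 6 single mice, and with clusters 2, 11 and 12 summed all 3 missed the threshold (FDR 0.136, 0.161 and 0.114). Their levels in cluster 2 were 13.8%, 19.7% and 11.4% of the highest other cluster, an ependymal, an astrocyte and a tanycyte cluster. Also called were the co-chaperone Dnaja1 (0.53, FDR 0.0449), the splicing factor Srsf6 (0.69, FDR 0.0272), the annexin Anxa5 (0.61, FDR 0.0486), Crip2 (0.57, FDR 0.0486), Tmem106c (0.72, FDR 0.0449) and the outer mitochondrial membrane protein Tspo (1.02, FDR 0.0141), all as log2 fold changes. Of these, Dnaja1, Anxa5, Crip2 and Tmem106c are among the calls named above as resting on single mice.

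**Figure D3:**
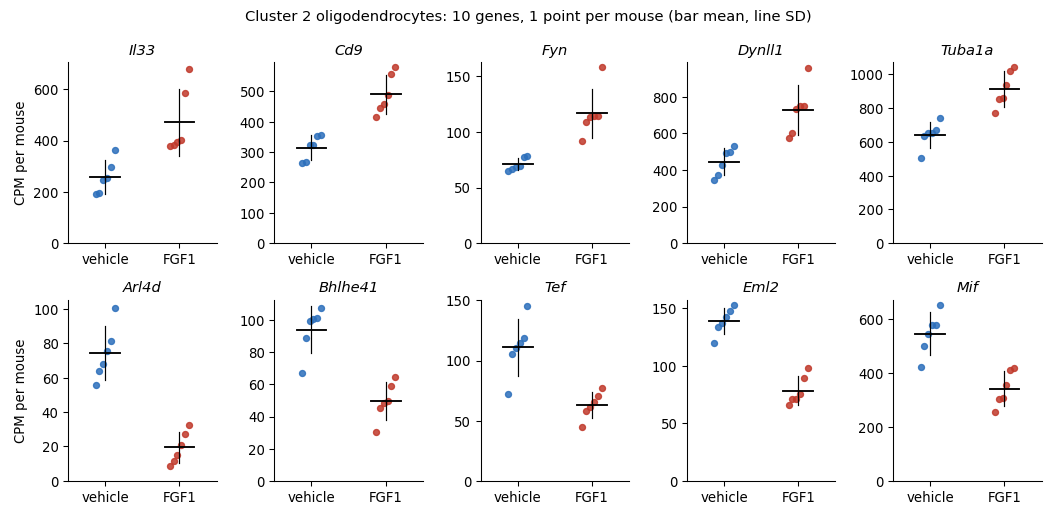
Normalised CPM per mouse (y axes, linear from 0) in cluster 2 for 5 genes that were higher (top) and 5 that were lower (bottom) after FGF1; points are mice, bars the mean and lines the SD, n = 6 per group. In every panel except Tef the vehicle and FGF1 points do not overlap.

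Arl4d and Bhlhe41 stood out among the genes that fell. Arl4d, a small GTPase of the ARF family (chromosome 11, 101665541 to 101667832, plus strand), was at 8.78 to 32.7 (median 18.0) normalised CPM after FGF1 and 55.8 to 101 (median 72.0) after vehicle, and the highest FGF1 mouse stayed below the lowest vehicle mouse (log2 fold change -1.61 ± 0.22, FDR 9.69e-05). Bhlhe41, also called Dec2, is a repressor of the circadian clock that binds E-boxes in the promoters of clock genes and is itself switched on through E-boxes by the clock activators. It was at 30.6 to 64.8 (median 48.9) normalised CPM after FGF1 and 67.1 to 107 (median 99.97) after vehicle, again without overlap (log2 fold change -0.92 ± 0.16, FDR 0.00329). Tef, a clock output factor of the PAR bZIP family, was at 45.1 to 77.0 (median 63.6) normalised CPM after FGF1 and 71.8 to 145 (median 113) after vehicle, with a small overlap (log2 fold change -0.74 ± 0.16, FDR 0.0211), and the gene overlaps Gm17597 on the other strand. Arl4d and Bhlhe41 were called with each mouse left out in turn, and Tef was not called without FGF1 replicate 36 or vehicle replicate 20 or 25.

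The promoters of Bhlhe41 and Tef are shown because the same letters stand in both. They run from 250 bases before to 50 after the start of transcription in RefSeq (GRCm38.p6), written 5′ to 3′ on the gene's strand, with the E-box CACGTG in capitals, 153 bases before the start in Bhlhe41 (chr6:145865371-145865670, minus strand) and 127 in Tef (chr15:81802423-81802722, plus strand).
Bhlhe41: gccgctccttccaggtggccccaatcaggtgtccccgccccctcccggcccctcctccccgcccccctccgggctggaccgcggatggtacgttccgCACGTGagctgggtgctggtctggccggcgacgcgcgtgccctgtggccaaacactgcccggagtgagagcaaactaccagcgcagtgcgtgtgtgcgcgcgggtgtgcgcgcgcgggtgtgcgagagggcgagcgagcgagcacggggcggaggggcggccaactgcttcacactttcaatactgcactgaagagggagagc
Tef: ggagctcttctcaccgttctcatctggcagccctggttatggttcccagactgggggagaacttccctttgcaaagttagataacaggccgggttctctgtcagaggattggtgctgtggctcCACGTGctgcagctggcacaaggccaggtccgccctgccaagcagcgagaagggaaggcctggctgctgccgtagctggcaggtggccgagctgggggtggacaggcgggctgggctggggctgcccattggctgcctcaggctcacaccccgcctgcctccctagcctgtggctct
CACGTG reads the same on both strands. It was found in 2349 of 32851 such promoters (7.15%), and by gene in 8.09% of 27025 symbols and in 8 of the 51 called genes with an entry (15.7%), namely Bhlhe41, Tef, Ndrg4, S100a6, S100a11, Msn, Enkur and Cfap126. Other motifs were searched as well. An antioxidant element was found in 12.4% and a D-box in 3.38% of all such promoters, and each also occurred in some called genes. A match describes the letters only.

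Eml2, Mif, Ndufa5 and Cox6c also fell. Eml2, a microtubule-associated protein, was at 65.8 to 98.0 (median 73.3) normalised CPM after FGF1 and 120.02 to 153 (median 139.8) after vehicle (log2 fold change -0.76 ± 0.14, FDR 0.00346). Mif, macrophage migration inhibitory factor, was at 257 to 419 (median 332) normalised CPM after FGF1 and 423 to 653 (median 564) after vehicle (log2 fold change -0.66 ± 0.13, FDR 0.00854). Both separated the groups completely and kept their calls with each mouse left out in turn, but Mif did not pass without FGF1 replicates 10 and 21 (FDR 0.0763). Ndufa5 of complex I was at 288 to 345 (median 321) normalised CPM after FGF1 and 363 to 597 (median 478) after vehicle (log2 fold change -0.56 ± 0.12, FDR 0.0211) and Cox6c of complex IV at 931 to 1441 (median 1216) and 1429.9 to 2082 (median 1721) normalised CPM, with the groups meeting at their edges (log2 fold change -0.53 ± 0.12, FDR 0.0253), and Cox6c lies within Vps13b on the other strand. The RNA-binding protein Hnrnpa1 (-0.63, FDR 0.0211) and the glutathione transferases Gstm1 (-0.53, FDR 0.0211) and Gstm5 (-0.50, FDR 0.0264) also fell, and these 3 have related genes or copies among which reads may have been split. In the 12 fits without a mouse, Ndufa5 was called in 9, Hnrnpa1 in 8, Cox6c and Gstm1 in 7 each and Gstm5 in 6. Of the steepest falls, 2900052N01Rik, a long noncoding RNA, went from 44.0 to 157 (median 107) to 17.6 to 38.9 (median 28.3) normalised CPM (log2 fold change -1.69 ± 0.30, FDR 0.0106). Lhx1os (-1.52, FDR 0.0173), Ctxn2 (-1.27, FDR 0.0476), Sult4a1 (-1.18, FDR 0.0388), Zfp787 (-1.06, FDR 0.0287), Tlcd1 (-1.03, FDR 0.0231) and Ndrg4 (-1.002, FDR 0.0462) stood at medians under 30 normalised CPM in the FGF1 mice.

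Several falling genes are best known from neurons or astrocytes. Nefl, a neurofilament, was at 15.0 to 36.8 (median 22.5) normalised CPM after FGF1 and 43.4 to 65.7 (median 50.3) after vehicle (log2 fold change -0.996 ± 0.20, FDR 0.0106), and the protein kinase C gene Prkcb (-0.96, FDR 0.0176) and the growth cone protein Gap43 (-0.66, FDR 0.0287) were lower as well, as log2 fold changes. Over the same libraries the 5 neuronal markers were at 151 to 282.50 CPM (median 224) after FGF1 and 282.96 to 511 (median 359) after vehicle, ranges that met without overlapping. Etnppl, an astrocyte enzyme of phosphoethanolamine breakdown, fell with Itih3 (-0.88, FDR 0.0287 and -0.61, FDR 0.0486), at 21.1% and 14.8% of their level in astrocyte cluster 1. In cluster 3 the log2 fold changes of these 2 were -1.13 (FDR 0.00891) and -0.98 (FDR 0.0594). The part of RNA from other cells in these differences was not tested. Dcxr (-0.92, FDR 0.0486) and the histone gene Hist3h2ba (-0.77, FDR 0.0203) complete the 25.

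The largest rises were in genes that cluster 2 expressed at a small share of another cluster's level. S100a6, a calcium-binding protein, was at 602 to 1193 (median 749) normalised CPM after FGF1 and 240.0 to 406 (median 299) after vehicle (log2 fold change 1.39 ± 0.17, FDR 1.41e-04), 9.87% of its level in tanycyte cluster 7. Vim, the intermediate filament vimentin, was at 69.8 to 154 (median 134) normalised CPM after FGF1 and 22.4 to 58.0 (median 26.7) after vehicle (log2 fold change 1.87 ± 0.23, FDR 1.43e-04), 11.3% of that in ependymal cluster 6. Crym, a tanycyte marker, was at 50.8 to 189 (median 86.4) normalised CPM after FGF1 and 9.70 to 33.6 (median 25.4) after vehicle (log2 fold change 2.10 ± 0.31, FDR 0.00403), 7.06% of that in cluster 7. All 3 separated the groups without overlap and were called with each mouse left out in turn. With them rose S100a11 (1.63, FDR 0.00403), S100a10 (1.09, FDR 0.00719), S100a4 (1.10, FDR 0.0486), the annexin Anxa2 (1.60, FDR 0.00175), Tagln2 (1.41, FDR 0.00329), Tm4sf1 (1.41, FDR 0.0486), moesin (Msn, 1.25, FDR 0.0113), Id3 (1.21, FDR 0.00329), Crip1 (0.69, FDR 0.0449), Thrsp (1.11, FDR 0.0309) and Cox6b2 (1.28, FDR 0.0203). The astrocyte water channel Aqp4 was at 76.0 to 174 (median 113) normalised CPM after FGF1 and 38.6 to 71.0 (median 55.0) after vehicle (log2 fold change 1.03 ± 0.19, FDR 0.00780). It was the only call among 7 tested astrocyte markers, of which 4 had a positive and 3 a negative log2 fold change. With the 3 clusters summed Aqp4 was not called (FDR 0.297), while the astrocyte markers Agt and Slc1a2 were called lower.

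Some of the called genes are known from motile cilia, which ependymal cells bear. They were picked from the calls, not from a list of cilium genes, and Dynlrb2 was the call among 5 tested ependymal markers. Dynlrb2, a dynein light chain, was at 54.5 to 102 (median 74.1) normalised CPM after FGF1 and 8.49 to 28.5 (median 23.5) after vehicle, without overlap (log2 fold change 1.64 ± 0.21, FDR 8.74e-05). Enkur (1.38, FDR 0.0211), Lrrc23 (1.41, FDR 0.00898), Cfap126 (1.2003, FDR 0.0106), Fam183b (1.18, FDR 0.00882), 1700007K13Rik (1.12, FDR 0.0253), Riiad1 (0.70, FDR 0.0388) and Tmem107 (1.07, FDR 0.0211) rose with it, at 4.68% to 5.93% of their level in ependymal cluster 6. The ependymal and tanycyte marker sums given above include Dynlrb2 and Crym, so they are not independent of those calls, and they moved the same way across the groups. They did so in cluster 3 as well, where the 5 tanycyte markers had medians of 125 CPM after FGF1 and 73.2 after vehicle, and Dynlrb2, Crym, Cfap126 and Tmem107 had log2 fold changes of 1.01 (FDR 0.0870), 1.64 (FDR 0.0854), 1.29 (FDR 0.0160) and 0.86 (FDR 0.0271). With the 3 clusters summed, Dynlrb2 was called (log2 fold change 0.99, FDR 0.00969), while the 7 other cilium genes named here were not, from Riiad1 at 0.13 (FDR 0.747) to Enkur at 0.89 (FDR 0.112). Whether the RNA came from the oligodendrocytes or from other cells was not tested.

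To see where the log2 effect of FGF1 differed between cluster 2 and cluster 3, the difference was tested within mice, a comparison added after the called genes were seen. It was called for 27 of 8113 genes (0.333%), 18 with the higher effect in cluster 2 and 9 with the lower. Il33 was among them, at 1.22 ± 0.28, FDR 0.0301 on the log2 scale, and so were Vim (1.26 ± 0.22, FDR 0.00412), Anxa2 (1.36 ± 0.26, FDR 0.00412), Tagln2 (1.13 ± 0.25, FDR 0.0147), Msn (1.04 ± 0.25, FDR 0.0335), Id3 (0.72 ± 0.17, FDR 0.0301), Crip1 (0.83 ± 0.17, FDR 0.00855), Cox6b2 (1.88 ± 0.40, FDR 0.0132), the peptide-processing enzyme Cpe (0.64 ± 0.12, FDR 0.00412) and the bicarbonate carrier Slc4a4 (0.86 ± 0.16, FDR 0.00412). Arl4d had 18.9 ± 8.86 CPM after FGF1 and 70.7 ± 15.3 after vehicle in cluster 2, and 119 ± 20.0 CPM after FGF1 and 119 ± 30.3 after vehicle in cluster 3 (SD, n = 6), a difference of -1.64 ± 0.28, FDR 0.00412. Eml2 (-0.86 ± 0.21, FDR 0.0353), Gstm7 (-0.90 ± 0.17, FDR 0.00412), the deacetylase Sirt2 of myelin (-0.72 ± 0.14, FDR 0.00498), the cold-induced Rbm3 (-0.66 ± 0.14, FDR 0.0132) and Malat1 (-0.33 ± 0.07, FDR 0.0132) also had the lower effect in cluster 2. Sirt2 did not fall there by mean level, at 642 CPM after FGF1 and 544 after vehicle, and it stood at 212 and 117 in cluster 3. Malat1 was at 53443 and 55753 CPM in cluster 2, and at 44595 and 39681 in cluster 3. No difference passed for S100a6, Crym, the cilium genes, Bhlhe41, Tef, Cd9 or Fyn, which does not show that their effects were equal. The count ranged from 12 (without vehicle replicate 20) to 77 (without FGF1 replicate 36).

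**Figure D4:**
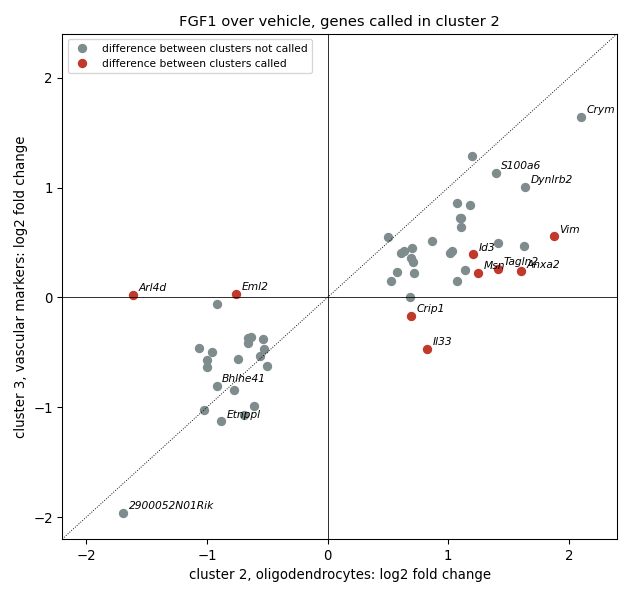
Log2 fold change (FGF1 over vehicle) of the 55 called genes that were tested in both, in cluster 2 (x axis) and in cluster 3 with endothelial and pericyte markers (y axis); the dotted line marks equal effects, and the 9 genes in red differed between the clusters. Both axes come from the same 12 mice, and Arl4d, Anxa2, Vim, Il33, Tagln2, Msn and Eml2 are among the genes in red.

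Lists of genes chosen by function are given by their calls and medians, beside the 0.904% of all 7187 genes that were called (0.557% higher, 0.348% lower) and their median log2 fold change of -0.0019. Most lists are so short that less than 1 call would match that share, so neither 0 nor 1 call sets a list apart. Of 23 genes of myelin and its junctions only Cd9 was called, with a median of 0.08. Mbp stood at 5649 to 7989 (median 5974) normalised CPM after FGF1 and 3968 to 7857 (median 6160.4) after vehicle (log2 fold change 0.08 ± 0.14, FDR 0.916). With clusters 2, 11 and 12 summed, 190 of 8438 genes were called (2.25%, 95 in each direction), and 7 of the 23 myelin genes were then higher (among them Mog, Mal, Cldn11, Opalin, Jam3 and Cd9, list median 0.39), with Mog at 0.57 (FDR 0.0464). The mix of clusters in that sum differed between the groups, with cluster 2 at 15.5% to 75.3% of its cells after FGF1 and 78.0% to 91.4% after vehicle. The part of this mix was not tested, here or in the summed results of the lists below. Of 10 genes of newly formed oligodendrocytes Fyn was called (median 0.26), and Arpc1b was at 125 to 246 (median 159) normalised CPM after FGF1 and 41.0 to 149 (median 65.3) after vehicle (log2 fold change 0.97 ± 0.31, FDR 0.202). Il33 and Anxa5 were called of 15 genes of mature subtypes (median -0.07). Ptgds stood at 6333 to 12989 (median 8541) normalised CPM after FGF1 and 10616 to 15103 (median 12724) after vehicle (log2 fold change -0.46 ± 0.17, FDR 0.247). No call fell among 19 lineage transcription regulators (median -0.05), such as Olig1 (-0.09, FDR 0.859).

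In lipid synthesis, none of 21 cholesterol genes (median -0.04) and none of 19 genes of fatty acid and sphingolipid synthesis (median -0.00874) was called, with Hmgcs1 at -0.03, FDR 0.990 and Scd2 at -0.04, FDR 0.968. Summed over the 3 clusters, Fads1, Ugt8a and Cers2 were higher and Elovl6 lower. Of 77 nuclear genes of oxidative phosphorylation, Ndufa5 and Cox6c fell, against 0.348% of all genes, and 72 had a negative log2 fold change (median -0.18), and all 13 mitochondrially encoded genes were negative with none called (median -0.22). The share of mitochondrial UMIs per cell, lower after FGF1 in all 6 batches, moved with them, and its part was not tested. Cox4i1 was at -0.34, FDR 0.155 and mt-Co1 at -0.23, FDR 0.352. Neither the 81 cytosolic ribosomal protein genes (median -0.0781) nor 17 genes of glycolysis and lactate (median -0.12) held a call, and Gapdh, at 417 to 681 (median 648) normalised CPM after FGF1 and 711 to 995 (median 857) after vehicle, without overlap, came closest (log2 fold change -0.46 ± 0.12, FDR 0.0579). With the 3 clusters summed, Gapdh, Aldoc and Eno2 were lower and the glycolysis median was -0.41. Nor did 17 genes of insulin, FoxO and mTOR signalling (median -0.16), 8 of iron handling (-0.0169), 23 of the lysosome (0.0912) or 15 channels, pumps and transporters (-0.0377). The 14 antioxidant genes held 2 rises (Slc7a11, Prdx6) and 1 fall (Gstm1), again against 0.904% of all genes, with a median of -0.0759.

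Signalling and stress genes were read against the same 0.904%. Of 9 tested FGF receptors and adaptors (median -0.0859) and 5 tested MAPK feedback and Etv genes (0.10) none passed; Fgfr2, the main receptor of mature oligodendrocytes, was at 126 to 214 (median 165) normalised CPM after FGF1 and 191 to 276 (median 204) after vehicle (log2 fold change -0.35 ± 0.14, FDR 0.267). Nor did any of 12 immediate early genes (median 0.17), 10 genes of the unfolded protein and amino acid stress responses (-0.0878) or 13 glucocorticoid-responsive genes, of which 12 were negative (median -0.39). Among 12 heat shock genes Dnaja1 rose (median 0.18). Il33 was the call among 11 genes of reactive oligodendrocytes (median -0.28) and among 12 secreted and trophic genes (-0.18). The 8 interferon and antigen presentation genes had a median of 0.64 with none called, and their values were uneven, since B2m ran from 105 to 861 normalised CPM among FGF1 mice and from 125 to 1476 among vehicle mice. Tuba1a was called of 25 cytoskeletal genes (median 0.0129). The list with the most calls was that of genes that 3 glial types shared on Day 1 in the nuclei of this series, with 8 of 18 higher and Etnppl lower (median 1.04), and it was chosen from results of the same study, so it is not independent evidence.

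**Figure D5:**
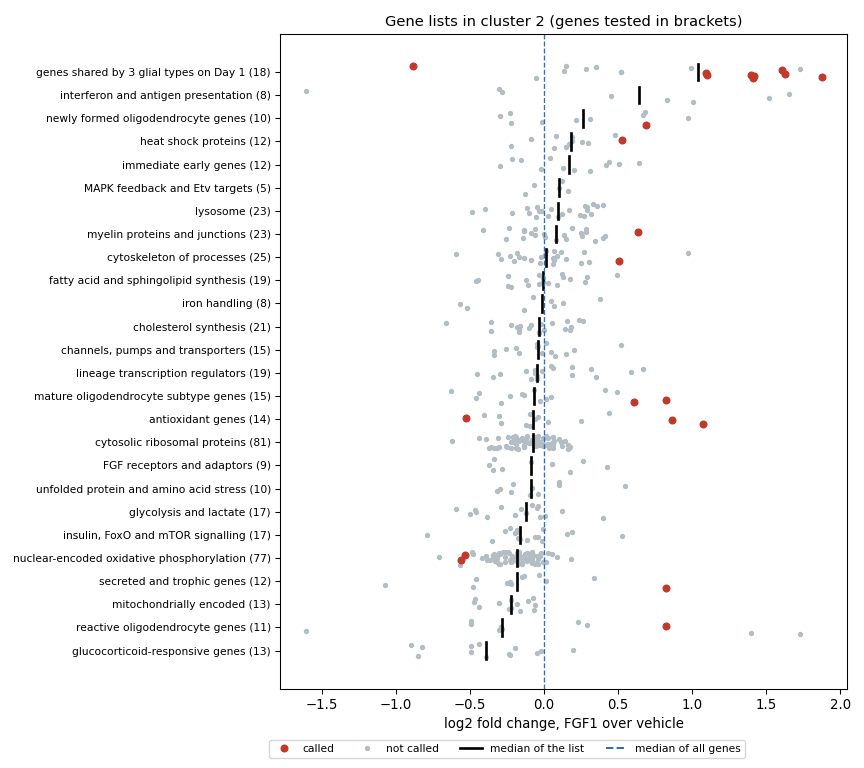
Log2 fold change (FGF1 over vehicle, x axis) in cluster 2 for the tested genes of 26 lists, 1 row per list with the number of genes in brackets; red points were called, black bars are list medians and the dashed line is the median of all genes. The medians farthest from 0 are the Day 1 list at 1.04, the interferon and antigen presentation list at 0.64 and the glucocorticoid-responsive list at -0.39.

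The response of cluster 2 was also set against that of cluster 11, from the same mice. The effect of FGF1 differed for 130 of 4438 genes (2.93%), 64 with the higher effect in cluster 2 and 66 with the lower. Nfasc, which anchors the node and paranode of myelinated axons, stood at 314 ± 61.5 CPM after FGF1 and 254 ± 23.3 after vehicle in cluster 2 and at 577 ± 171 CPM after FGF1 and 1195 ± 260.4 after vehicle in cluster 11 (SD, n = 6), a difference of 1.33 ± 0.16, FDR 1.43e-09. Ank3, the scaffold of the node (0.79 ± 0.14, FDR 6.42e-05), the collagen receptor Ddr1 (1.01 ± 0.17, FDR 3.49e-05), Ubl3 (0.96 ± 0.17, FDR 6.42e-05) and the plasminogen activator Plat (2.69 ± 0.38, FDR 1.64e-07) followed the same pattern, with a lower mean level after FGF1 in cluster 11 and not in cluster 2. In the other direction, Gatm of creatine synthesis (-0.78 ± 0.13, FDR 2.33e-05), the stathmins Stmn4 (-0.78 ± 0.13, FDR 3.87e-05) and Stmn1 (-0.71 ± 0.13, FDR 7.64e-05), Gng11 (-0.995 ± 0.17, FDR 7.64e-05) and ferritin heavy chain Fth1 (-0.53 ± 0.10, FDR 9.11e-05) had the lower effect in cluster 2. Gatm had means of 1750 CPM after FGF1 and 1613 after vehicle in cluster 2, and 1921 and 1094 in cluster 11. For Stmn1 they were 1684 and 1571 in cluster 2, and 2049 and 1247 in cluster 11. Stmn4 and Gng11 had lower means after FGF1 in cluster 2 and higher ones in cluster 11. Fth1 was at 10695 and 14878 CPM in cluster 2, and at 11512 and 11727 in cluster 11. Il33 rose less in cluster 2 than in cluster 11, by -1.23 ± 0.23, FDR 1.32e-04. Ndufa5 (-0.79 ± 0.18, FDR 0.00364), Hnrnpa1 (-0.97 ± 0.28, FDR 0.0341) and Gstm5 (-0.66 ± 0.18, FDR 0.0150) also differed: they fell in cluster 2 alone of the 2 by mean level. Cluster 11 held 17 to 56 cells in each vehicle mouse, and genes that separate the clusters were used to draw them. The count was 124 with another scaling (75 higher, 49 lower) and 271 without the filter on low counts (34 higher, 237 lower).

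Against cluster 12 the effect differed for 13 of 4500 genes (0.289%), in the 4 FGF1 and 6 vehicle mice with at least 10 cells there. Apod, a lipid carrier, was at 753 ± 67.4 CPM after FGF1 and 769.5 ± 161 after vehicle in cluster 2 and at 1415 ± 198 CPM after FGF1 and 789.7 ± 157 after vehicle in cluster 12, a difference of -0.88 ± 0.13, FDR 5.40e-06. The cell cycle inhibitor Cdkn1a differed by -1.51 ± 0.37, FDR 0.0289. The higher effect in cluster 2 was found for Slc4a4 (1.26 ± 0.25, FDR 0.00421), the GABA carrier Slc6a11 (1.02 ± 0.21, FDR 0.00463), Cpe (1.000 ± 0.18, FDR 0.00463), Ntrk2 (0.88 ± 0.19, FDR 0.0134) and angiotensinogen (Agt, 1.33 ± 0.30, FDR 0.0134), whose mean levels in cluster 12 were lower after FGF1. In cluster 2 the means of Slc6a11 (567 CPM after FGF1, 632 after vehicle) and Agt (215 and 304) were lower too, by less. Astrocytes express these 5 genes as well, and the part of the astrocyte RNA in cluster 2 was not tested. Ywhaq (-0.41 ± 0.12, FDR 0.107) and Hmgcs1 (-0.63 ± 0.18, FDR 0.116) did not pass. The count moved between 4 (without vehicle replicate 20) and 62 (without FGF1 replicate 36).

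Nuclei annotated as oligodendrocytes gave a view of the called genes on another day and by another method, as a description. They numbered 45 to 164 per mouse on Day 1 and 31 to 424 on Day 5. The neuronal marker Snap25 was high in them, at 684 to 1066 CPM on Day 1 against 13.2 to 157 normalised CPM in cluster 2. Il33 stood at 245 to 403 CPM after FGF1 and 36.3 to 57.5 after vehicle on Day 1, and at 69.3 to 81.0 CPM after FGF1 and 31.6 to 36.8 after vehicle on Day 5, so it was higher after FGF1 without overlap on both days. S100a6 was at 72.2 to 165 CPM after FGF1 and 14.2 to 20.4 after vehicle on Day 1, and at 19.3 to 38.5 CPM after FGF1 and 7.52 to 12.3 after vehicle on Day 5. Vim was at 39.8 to 85.9 CPM after FGF1 and 3.15 to 10.5 after vehicle on Day 1, whereas on Day 5 the groups overlapped (1.93 to 16.2 CPM after FGF1 and 6.02 to 12.3 after vehicle). Tef on Day 5 was at 44.6 to 52.0 CPM after FGF1 and 57.2 to 92.0 after vehicle, and Fyn at 109 to 131 CPM after FGF1 and 57.2 to 104 after vehicle, without overlap in either, whereas on Day 1 both overlapped (Tef 44.1 to 69.6 CPM after FGF1 and 53.6 to 73.3 after vehicle, Fyn 69.6 to 113 CPM after FGF1 and 75.8 to 114 after vehicle). Bhlhe41 overlapped on both days. Cd9 overlapped as well. Of the genes called higher in cluster 2, 20 reached 20 CPM in nuclei, with a median log2 difference of 0.19 on Day 1 and 0.14 on Day 5, and of those called lower 16 did, with 0.19 and -0.25, against 0.021 and -0.0012 for all 5204 genes. On Day 5 the groups of 2 did not overlap for 6 of the 20 in the higher direction (30%) and for 3 of the 16 in the lower (18.8%), against 18.4% and 17.2% of all genes. The opposite also occurred: S100a10 (10.8 to 11.6 CPM after FGF1 and 12.3 to 28.6 after vehicle) and Riiad1 (21.2 to 26.9 CPM after FGF1 and 40.6 to 49.1 after vehicle), both higher in cluster 2, were lower in the Day 5 nuclei without overlap (2 of 20, 10%). On Day 1 the groups did not overlap for 5 of the 20 in the higher direction (25%) and 1 in the lower (5%), and for 1 of the 16 in the lower direction (6.25%) and 0 in the higher, against 5.23% of all genes in the higher direction and 5.48% in the lower.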

How the data were processed

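Single-cell libraries of 12 mice (6 FGF1, 6 vehicle) and nuclei of 10 mice were used. The authors counted UMIs with Cell Ranger 1.2 on GRCm38 (introns included for nuclei), removed Scrublet doublets from the whole cells, filtered cells, removed neurons and clustered with Seurat, and the raw counts and the percent of mitochondrial and ribosomal UMIs per cell were used as deposited. Of the 7409 cells, 7134 lay within the stated 20% limits on both percentages, and the rest were kept. A table of log values was not used. Values of a few genes are not reported here.

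The members and gene lists were chosen with earlier results of these data known, and the list shared by 3 glial types on Day 1 came from those results. Raw counts were summed per mouse over cluster 2 and tested in R 4.3.3 with edgeR 4.0.16 (limma 3.58.1): filterByExpr, TMM scaling, robust quasi-likelihood test, no covariates, Benjamini-Hochberg FDR below 0.05 over all genes tested. Effects in different clusters were compared by an interaction with mouse as a term, in mice with at least 10 cells in both. Per-cell quality was compared with an exact two-sided permutation test, adjusted over 7 measures. Among them were the shares of cluster 2, whose low p values can make the adjusted p of the quality measures smaller. A test planned for the shares of cluster 2 is not reported, because membership depends on genes that differed between the groups. The fits were tested on simulated data.

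Named genes were, by rule, the called genes with the largest changes or lowest p at a mean of at least 20 CPM, called members of lists, the 2 most abundant members of each list not called, genes that set the cluster apart, markers, and the 5 leading genes per direction of each interaction. The remaining called genes, Arpc1b, Snap25 and the genes with strong spread between mice were chosen after their values were seen. Nuclear values are plain CPM. Alternatives were another scaling (RLE), DESeq2 1.42.0, no filter on low counts, the batch as a term, stricter cells, thinned cells, the 3 clusters summed and each mouse left out. Mice were separate animals. Totals ran from 132874 to 2222420 UMIs per mouse in cluster 2, and means of mice with few cells are less precise.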

Additional observations from a re-analysis of the deposited data

Results flagged for a closer look

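A mouse stood far from the other 5 of its group in 20 of 144 sets of 6 values examined, where chance gives about 5% (1 in 20). FGF1 replicate 10, with 93 cells, was the far one for Msn (78.8 normalised CPM), Thrsp (248), Gstm1 (366) and Gstm5 (409.6), and for median UMIs (2271) and median genes per cell (1116). Vehicle replicate 29 was high for Prdx6 (501), Thrsp (85.2), Anxa2 (27.2) and Enkur (20.1). Vehicle replicate 35 was far from its group for Msn (8.49) and median UMIs per cell (1730.0). For vehicle replicate 27 it was S100a4 (37.3), Tmem106c (14.9) and the share of cluster 2 in the oligodendrocyte lineage, clusters 2, 5, 9, 11 and 12 (43.3%). Single genes set apart vehicle replicate 25 (Zfp787, 43.6), FGF1 replicate 7 (Cox6b2, 70.2), FGF1 replicate 21 (Fyn, 158), FGF1 replicate 28 (Gap43, 121) and FGF1 replicate 36 (Hist3h2ba, 171).

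The effect of FGF1 differed between cluster 2 and another cluster by the interaction test for the following named genes, given as the log2 effect in cluster 2 minus that in the other. Against cluster 11 they were Nfasc (1.33), Plat (2.69), Ddr1 (1.01), Ank3 (0.79), Ubl3 (0.96), Gatm (-0.78), Stmn4 (-0.78), Gng11 (-0.995), Stmn1 (-0.71), Fth1 (-0.53), Gstm5 (-0.66), Ndufa5 (-0.79), Hnrnpa1 (-0.97) and Il33 (-1.23). Against cluster 12 they were Slc4a4 (1.26), Slc6a11 (1.02), Cpe (1.000), Ntrk2 (0.88), Agt (1.33), Apod (-0.88) and Cdkn1a (-1.51). Against cluster 3 they were Cpe (0.64), Vim (1.26), Anxa2 (1.36), Slc4a4 (0.86), Crip1 (0.83), Arl4d (-1.64), Gstm7 (-0.90), Sirt2 (-0.72), Rbm3 (-0.66), Malat1 (-0.33), Tagln2 (1.13), Msn (1.04), Id3 (0.72), Cox6b2 (1.88), Eml2 (-0.86) and Il33 (1.22).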

How the results depend on the processing

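All called genes kept their direction under every alternative in which they were tested, and 24 of the 65 were called without each of the 12 mice in turn, while the other 41 lost the call or were not tested in at least 1 of those fits. The 65 genes (40 higher, 25 lower) became 157 (87 and 70) without the filter on low counts, 27 (16 and 11) with cells thinned to 800 UMIs, 34 (26 and 8) with an absolute log2 fold change above 1, and 88 with DESeq2 (63 higher). Chosen after seeing the data, the fit without FGF1 replicates 10 and 21 gave 19 (14 and 5). With clusters 2, 11 and 12 summed there were 190 (95 and 95), and 348 (150 and 198) when the batch was also a term, a fit added after seeing the data. Without single mice the count ran from 28 to 84 (20 to 57 higher, 8 to 36 lower), with 40 without FGF1 replicate 10, 38 without FGF1 replicate 7, 34 without vehicle replicate 20 and 28 without vehicle replicate 25. With the batch as a term in cluster 2 alone it was 89, and 10 of the 65 were lost. The cause of these changes was not tested.

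Differences of effect against cluster 11 numbered 271 without the filter and 75 (without vehicle replicate 25) to 183 without single mice. Against cluster 12 there were 24 without the filter and 4 to 62 without single mice, with 6 without FGF1 replicate 10, 62 without FGF1 replicate 36, 4 without vehicle replicate 20, 8 without vehicle replicate 22 and 21 without vehicle replicate 29. Against cluster 3 there were 12 to 77, with 15 without FGF1 replicate 7 or 10, 16 without 28, 17 without 6 and 77 without 36, and 12, 14 and 41 without vehicle replicates 20, 25 and 35. For the share in clusters 2, 11 and 12 the difference ran from -24.3 (without FGF1 replicate 10) to -36.2 percentage points (without FGF1 replicate 28), and for the share in all cells from -9.97 to -12.2. The mitochondrial difference ran from -1.44 to -0.724 points, with an adjusted p of 0.045 without FGF1 replicate 28 (exact permutation). That adjustment takes in the shares of cluster 2, whose test is not reported and whose low p values lower it, so no conclusion is drawn. By replicate number, no paired analysis was possible because the FGF1 and vehicle mice share none, and the batches, each of 1 FGF1 and 1 vehicle mouse, gave the fits with the batch as a term. Mice with about 100 cells limit what low genes can show.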

Other observations

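Among 1487 genes with a mean of at least 100 normalised CPM in cluster 2, the median coefficient of variation over the 12 mice was 17.0%. Antigen presentation genes varied far more, and were chosen here after their values were seen. H2-D1, a class I major histocompatibility chain, stood at 963 normalised CPM in vehicle replicate 22 and at 7.51 to 123 in the other 11 mice. B2m, its light chain, stood at 1476 in vehicle replicate 22, at 861 in FGF1 replicate 6 and at 105 to 294 in the other 10. Both mice belong to batch 3, and the labels do not say what a batch is. Hes1 ran from 26.7 to 548 normalised CPM over the mice, and Fth1 from 4053 to 31929.6. The cause of this spread was not tested.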
